A study of Mus musculus with 6 samples.

Results

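The ectodysplasin pathway and the genes of inherited hypotrichosis were examined in FACS sorted hair follicle stem cells (HFSCs) of mouse dorsal skin. The 10 genes were taken by symbol from the count table, which holds 56941 genes. They were the ligand Eda, the receptors Edar, Eda2r and Tnfrsf19, the adaptor Edaradd, and the hypotrichosis genes Hr, Liph, Lpar6, Apcdd1 and Cdsn. All 10 were in the table and all 10 passed the filter on low counts.

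Female mice were sampled at postnatal day 68 (PD68), when the study placed both genotypes in the second telogen, the resting phase of the hair cycle. Both groups came from the line B6;129S4-Dab2tm1Cpr/J, carried Dab2 fl/fl alleles and received tamoxifen at 75 mg/kg on 5 days. The WT mice lacked Cre, and the Dab2-cKO mice carried Cre driven by the K14 promoter (K14CreER), which acts in basal keratinocytes. Cells were sorted as CD34+/α6-integrin+, and each group had 3 libraries labelled as biological replicates. The source of each replicate beyond that label was not given, so p-values measure the spread between these libraries.

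Library totals ran from 7040032 to 11696457 counts. Dab2, the targeted gene, had 304 to 368 counts in the libraries labelled WT and 1130 to 1504 in those labelled Dab2-cKO. The targeted gene was thus higher in the group labelled as its knockout, and directions are given here by the labels alone. The count table names these libraries for floxed alleles, which both genotypes carry, and they were taken as Dab2-cKO from the series title. Counts summed over a gene do not tell intact transcripts from those that lack an exon. The fibroblast or dermal papilla, endothelial and immune marker lists were 3.2, 3.44 and 4.16 times as high in Dab2-cKO as in WT. The part of these lists, of exon loss or of the labels in the Dab2 counts was not tested. Of the 11 bulge markers checked, all had counts in every library, 5 were called lower and 6 higher in the libraries labelled Dab2-cKO. Lhx2, Sox9, Tbx1, Foxc1 and Lgr5 were lower, and Cd34, Itga6, Krt15, Nfatc1, Krt14 and Krt5 were higher. The summed normalized count of these 11 was 19810 to 22680 in WT and 32900 to 33840 in Dab2-cKO. That of 11 fibroblast or dermal papilla genes was 103300 to 124700 in WT and 355600 to 375300 in Dab2-cKO, above the bulge sum in every library. Libraries did not overlap between groups in several marker lists of other cells. The summed normalized count of 17 matrix, inner root sheath and hair shaft genes was 230400 to 276500 in WT and 3511 to 3568 in Dab2-cKO, with 17 of 17 genes lower. The sum of 8 skeletal muscle genes was 56310 to 65590 in WT and 268300 to 272200 in Dab2-cKO, with 8 of 8 genes higher. All 8 melanocyte and all 8 proliferation genes were lower, while all 6 endothelial, 8 of 10 immune, 7 of 11 fibroblast or dermal papilla and 8 of 9 infundibulum or sebaceous gland genes were higher. Of the fibroblast or dermal papilla genes, Corin (log2 fold change -1.05) and Vcan (-0.27) were called lower, and Sox2 and Rspo3 were not called. Over all genes tested, 11.5% were called lower and 16.8% higher. Among genes averaging at least 50 counts, fitted alone, 57.6% were called. Mitochondrial genes took 13.0% to 14.4% of counts in WT and 19.1% to 20.3% in Dab2-cKO. Genes of rRNA, mitochondrial ones included, took 15.3% to 17% in WT and 22.3% to 24.2% in Dab2-cKO. The scaling factors (TMM) were 1.11 to 1.21 in WT and 0.847 to 0.876 in Dab2-cKO. The part of these differences in the results was not tested. No gene of any marker list was at 0 in any library. In bulk samples, fewer cells of a type and less RNA per cell cannot be told apart.

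Ectodysplasin is a ligand of the TNF family that initiates hair placodes and later takes part in the hair cycle. One splice form, EDA-A1, binds Edar, which recruits the adaptor Edaradd by a death domain and signals through TRAF6 to the IKK complex and NF-κB. Another splice form, EDA-A2, binds Eda2r, a receptor without a death domain. Loss of EDA, EDAR or EDARADD in humans causes hypohidrotic ectodermal dysplasia with sparse hair. The hypotrichosis genes act elsewhere. LIPH makes lysophosphatidic acid, which activates the receptor LPAR6, HR is a nuclear corepressor that binds the vitamin D receptor, APCDD1 is a membrane inhibitor of Wnt signaling, and CDSN encodes corneodesmosin of the cornified layer.

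The promoters of Edar and Eda2r, the receptors that moved in opposite directions, are shown with that of Nfkbia, the NF-κB inhibitor gene that rose most among the signal transducers. Each line holds the 250 bases before the start of the canonical GENCODE transcript, read from GRCm39 5′ to 3′ on the strand of the gene. The windows are chr10:58511536-58511785 for Edar, chrX:96420840-96421089 for Eda2r and chr12:55539433-55539682 for Nfkbia, all on the minus strand. Capitals mark the TCF/LEF core CTTTGA and an NF-κB pattern (GGG, any 2 bases, then TTTCC), each searched on both strands.
Edar: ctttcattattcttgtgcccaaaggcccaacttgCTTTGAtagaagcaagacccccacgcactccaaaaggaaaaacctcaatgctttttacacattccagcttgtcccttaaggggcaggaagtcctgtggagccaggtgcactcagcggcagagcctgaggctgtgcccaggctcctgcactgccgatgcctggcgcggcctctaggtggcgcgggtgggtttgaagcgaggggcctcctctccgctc
Eda2r: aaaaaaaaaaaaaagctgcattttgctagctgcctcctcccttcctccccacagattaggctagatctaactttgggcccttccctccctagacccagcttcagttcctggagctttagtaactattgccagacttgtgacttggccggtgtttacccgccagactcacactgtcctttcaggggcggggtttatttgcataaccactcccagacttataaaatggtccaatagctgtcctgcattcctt
Nfkbia: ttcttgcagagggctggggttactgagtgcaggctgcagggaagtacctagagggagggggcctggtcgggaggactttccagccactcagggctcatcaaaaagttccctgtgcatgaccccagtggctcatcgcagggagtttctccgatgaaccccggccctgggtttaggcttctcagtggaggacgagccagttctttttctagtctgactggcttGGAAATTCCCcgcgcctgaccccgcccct
The window of Edar held 1 TCF/LEF core, beginning 216 bases before the start, and that of Nfkbia held 1 NF-κB pattern, beginning 29 bases before it. The window of Eda2r held neither set of letters. Among the 10 genes, Apcdd1 also had 1 TCF/LEF core and none had the NF-κB pattern. Of 21770 protein-coding promoters of this length, 14.1% held the TCF/LEF core and 1.47% the NF-κB pattern, and a match of letters does not show binding.

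Levels were compared between genes as normalized counts per kb of exon, because longer genes collect more reads. In the libraries labelled WT, Cdsn had the highest level with 508.8 ± 61.3 per kb (SD, n = 3), followed by Hr with 351.7 ± 25.9. Tnfrsf19 and Apcdd1 came next with 86.9 ± 3.49 and 73.1 ± 9.04, and their libraries overlapped. Edaradd, Liph and Lpar6 followed between 48.9 and 40.6 per kb, with overlap between neighbours in that order. Edar had 29.4 ± 1.6, Eda 18.4 ± 3.07 and Eda2r 7.89 ± 1.25 per kb, and these 3 did not overlap each other. As a gauge of reads not tied to expression, 1554 chemosensory receptor genes had a median of 4.90 per kb and a 95th percentile of 11.8 per kb over all libraries. Eda2r in WT thus lay under the 95th percentile of these receptor genes, while the other 9 lay above it. In the libraries labelled Dab2-cKO, Cdsn and Hr again led with 573 ± 8.99 and 278 ± 10.9 per kb. Lpar6 (22.0 ± 2.12), Eda2r (20.8 ± 3.29), Edar (16.2 ± 3.45) and Eda (13.7 ± 3.62) closed the order, and each overlapped its neighbour. Eda2r, last in WT, was eighth of 10 there. The exon length of Apcdd1 (16198 bases) was the union of all annotated transcripts, which lowers its level per kb.

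**Figure D1:**
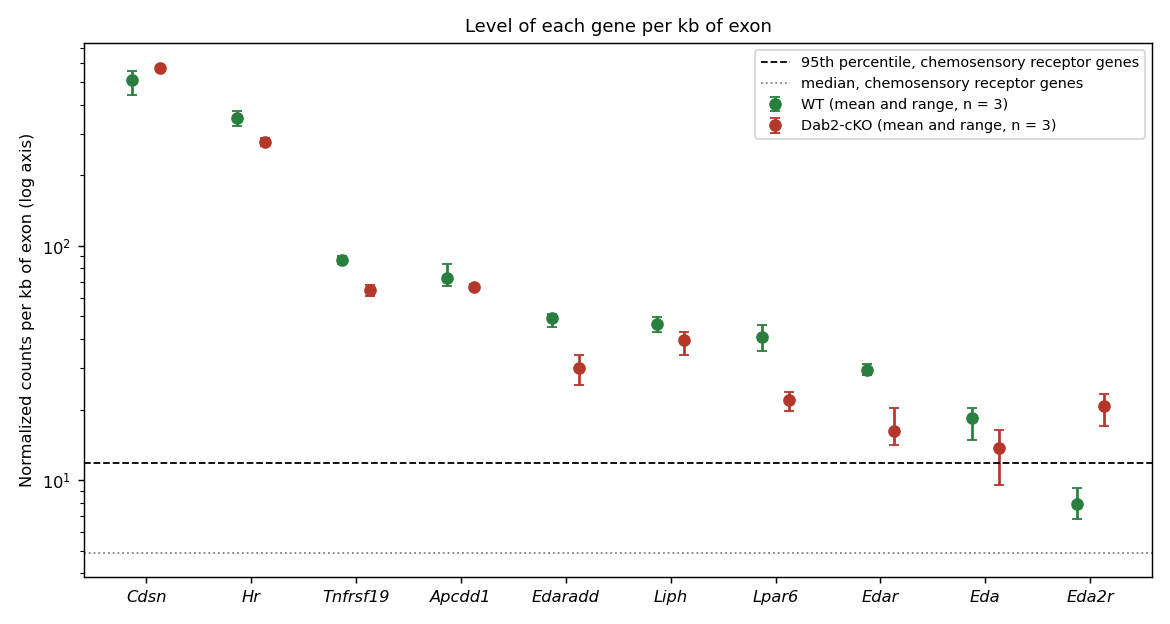
Mean level of each of the 10 genes in normalized counts per kb of exon (log axis), with bars from the lowest to the highest of 3 libraries labelled WT (green) or Dab2-cKO (red). The dashed line is the 95th percentile (11.8) and the dotted line the median (4.90) of chemosensory receptor genes; Eda2r in WT is the point under the dashed line, at 7.89.

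The main comparison asked which of the 10 genes differed between genotypes. Edar, Edaradd, Tnfrsf19, Lpar6 and Hr fell and Eda2r rose in the libraries labelled Dab2-cKO, by edgeR's quasi-likelihood test with a threshold of 0.05 on p-values adjusted across 32149 genes. Eda, Liph, Apcdd1 and Cdsn did not pass. Over all genes tested, 11.5% were called lower and 16.8% higher, so 28.2% were called in either direction, against 6 of the 10 here. All 10 averaged over 50 counts, and abundant genes were called more often. In a fit of the 14801 genes averaging at least 50 counts, 57.6% were called, and 9 of the 10. That fit had its own scaling, and all 10 log2 fold changes were lower than in the main fit. Eda was at -0.51 against -0.42, and Eda2r at 1.31 against 1.40. Eda, Liph and Apcdd1 were called there and not in the main fit, so the 9 includes this shift. Against a threshold of 1.5-fold in place of no change, Lpar6 (adjusted p = 0.0427 in edgeR) and Eda2r (adjusted p = 2.23e-05 in edgeR) were called and the other 8 were not. Groups that did not overlap were found for 38.3% of all genes tested. In 5 of the 10 genes every Dab2-cKO library lay below every WT library, as did 17.7% of all genes tested, and in 2 every one lay above, as did 20.6%. The median log2 fold change of the 10 genes was -0.38, beside -0.02 over all genes tested. With scaling by library size only, the median over all genes moved to -0.45 and with upper-quartile scaling to -0.17. A change of scaling moves all genes by a like amount. Relative to the median over all genes, the 10 log2 fold changes with library size only are therefore close to the main values by construction. They were -0.86 for Lpar6 (-0.86 with TMM) and 0.20 for Cdsn (0.19 with TMM), which is no separate check of the results.

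**Figure D2:**
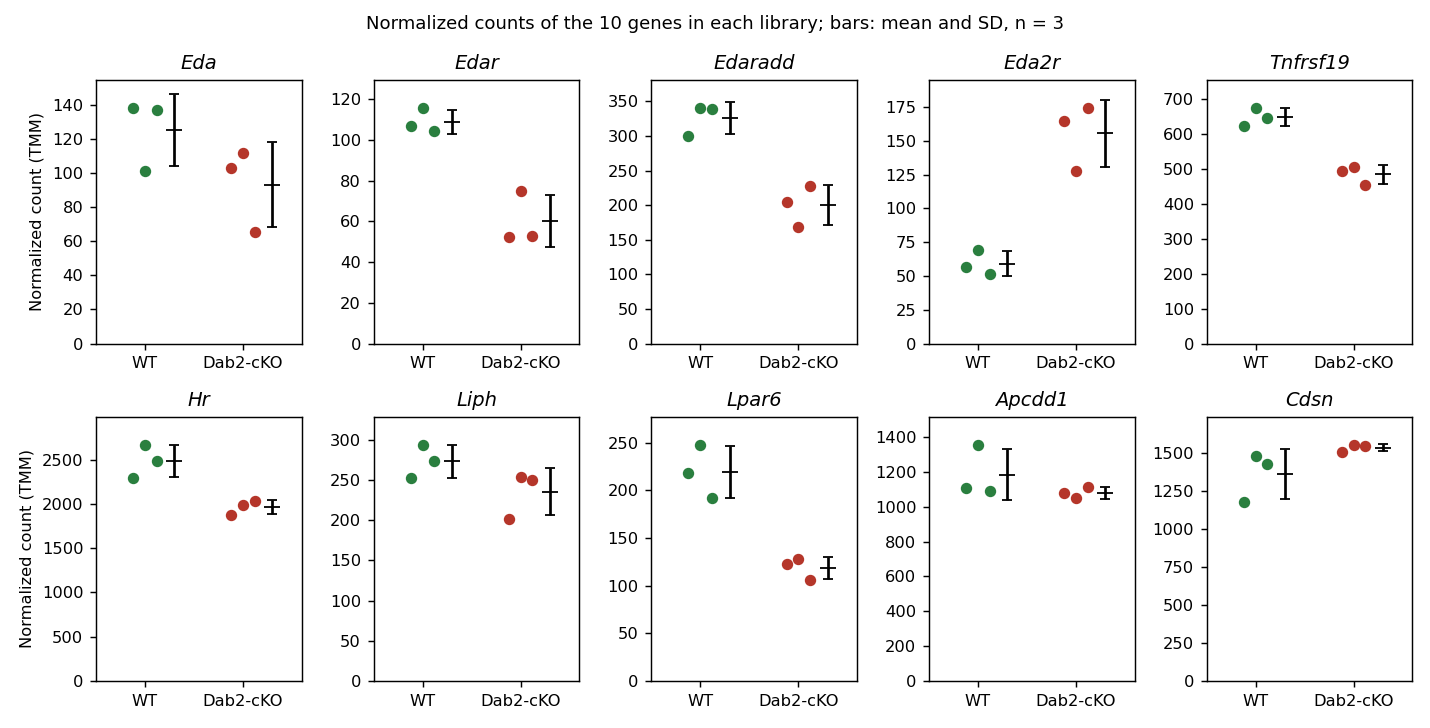
Normalized counts of the 10 genes in each library labelled WT (green) or Dab2-cKO (red), with each vertical axis starting at 0; black bars give the mean and SD of 3 libraries. The groups do not overlap for Edar, Edaradd, Eda2r, Tnfrsf19, Hr, Lpar6 and Cdsn, and they overlap for Eda, Liph and Apcdd1.

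Eda (ENSMUSG00000059327, chromosome X, 99019212 to 99444368), the ligand, had normalized counts of 138.1, 101.1 and 136.7 in WT replicates 1 to 3 and of 103.0, 111.6 and 65.1 in Dab2-cKO replicates 1 to 3. WT replicate 2 lay among the Dab2-cKO libraries, so the groups overlapped. The log2 fold change was -0.42 (SE 0.17, adjusted p = 0.0634 in edgeR). Single libraries moved this value on both sides of the threshold. It was -0.24 without Dab2-cKO replicate 3 (adjusted p = 0.395), -0.35 without WT replicate 1 (adjusted p = 0.214) and -0.34 without WT replicate 3 (adjusted p = 0.264). Without WT replicate 2 it was -0.55 (adjusted p = 0.0265), without Dab2-cKO replicate 1 -0.52 (adjusted p = 0.0472) and without Dab2-cKO replicate 2 -0.59 (adjusted p = 0.0142), all by edgeR. With all libraries Eda passed under upper-quartile scaling (-0.57), library size only (-0.85), no low-count filter (-0.45) and a mean count of at least 50 (-0.51), and missed in DESeq2 (adjusted p = 0.178). An even background at the receptor median would give 33.5 counts for a gene of this exon length.

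Edar (ENSMUSG00000003227, chromosome 10, 58436611 to 58511535), the receptor of EDA-A1, was counted at 106.9, 115.6 and 104.2 in WT and at 52.5, 74.8 and 53.0 in Dab2-cKO, normalized and in replicate order. Every Dab2-cKO library was below every WT library, and Dab2-cKO replicate 2 was the highest of its group. The mean fell from 108.9 ± 5.92 to 60.1 ± 12.8 (mean ± SD, n = 3 each), a log2 fold change of -0.86 (SE 0.19, adjusted p = 0.000161 in edgeR). An even background at the receptor median would give 18.1 counts for Edar, so the fold change also depends on how much of each level is expression. Edar kept its call in the 13 alternatives that tested against no change, with values from -1.29 to -0.79, and missed the test against a 1.5-fold change (adjusted p = 0.172 in edgeR).

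Edaradd (ENSMUSG00000095105, chromosome 13, 12487513 to 12535319), the adaptor that links Edar to TRAF6, fell with its receptor. Its normalized counts were 299.5, 340.4 and 339.2 in WT and 204.1, 169.1 and 227.4 in Dab2-cKO. The groups were apart, with the lowest WT library above the highest Dab2-cKO library. The log2 fold change was -0.71 (SE 0.11, adjusted p = 4.72e-07 in edgeR).

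Eda2r (ENSMUSG00000034457, chromosome X, 96320270 to 96420847), the receptor of EDA-A2, was the only gene of the 10 called higher in the main fit. It had 56.8, 69.5 and 51.3 normalized counts in WT and 165.0, 127.7 and 174.4 in Dab2-cKO. The lowest Dab2-cKO library held more than the highest WT library. The mean rose 2.63-fold, from 59.2 ± 9.36 to 155.7 ± 24.7 (mean ± SD, n = 3 each), with a log2 fold change of 1.40 (SE 0.18, adjusted p = 3.71e-10 in edgeR). This change was larger than that of 96.6% of all genes tested. An even background would give 36.8 counts for Eda2r, a large share of its WT level, so the fold change also depends on how much of that level is expression. Eda2r is known from muscle as well as from skin, and the sum of the skeletal muscle genes was 4.44 times as high in Dab2-cKO as in WT. The fibroblast and dermal papilla list was 3.20 times as high, a sum made up largely of Col1a1, Col1a2 and Col3a1, while its genes Corin and Vcan were lower. The immune list was 4.16 times as high. The part of these lists in the rise of Eda2r was not tested.

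Tnfrsf19 (ENSMUSG00000060548, chromosome 14, 61201283 to 61284366) encodes Troy, a receptor of the same family that is close to Edar in sequence and marks epithelial stem cells. Its normalized counts were 622.4, 674.4 and 645.9 in WT and 493.0, 506.3 and 453.6 in Dab2-cKO. Each Dab2-cKO library lay below each WT library. The log2 fold change was -0.42 (SE 0.08, adjusted p = 2.81e-05 in edgeR), and the WT mean was 1.34 times that in Dab2-cKO. Of its exon bases, 14.9% overlap lncRNAs annotated on the opposite strand, and the strand setting of the counting was not given in the sources used here.

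The receptors were also compared as ratios of counts within each library, which no scaling between libraries can change. Eda2r over Edar was 0.531, 0.602 and 0.492 in WT and 3.15, 1.71 and 3.29 in Dab2-cKO. The 3 Dab2-cKO libraries were all above the 3 WT libraries, and Dab2-cKO replicate 2 was the nearest to them. The ratio itself depends on the lengths of both genes. Per kb, Edar was above Eda2r in WT, and in Dab2-cKO the ranges of both genes overlapped. The log2 ratio differed by 2.27 (p = 0.1 in an exact 2-sided permutation test, the lowest value possible with 3 libraries a group). Eda2r over Edaradd was 0.182 ± 0.0274 in WT and 0.777 ± 0.0280 in Dab2-cKO (mean ± SD, n = 3 each). Edaradd over Edar was 3.00 ± 0.231 and 3.48 ± 1.08 (mean ± SD, n = 3 each), and its libraries overlapped, so a difference between the falls of receptor and adaptor was not detectable with 3 libraries a group (exact 2-sided permutation test, p = 0.6).

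**Figure D3:**
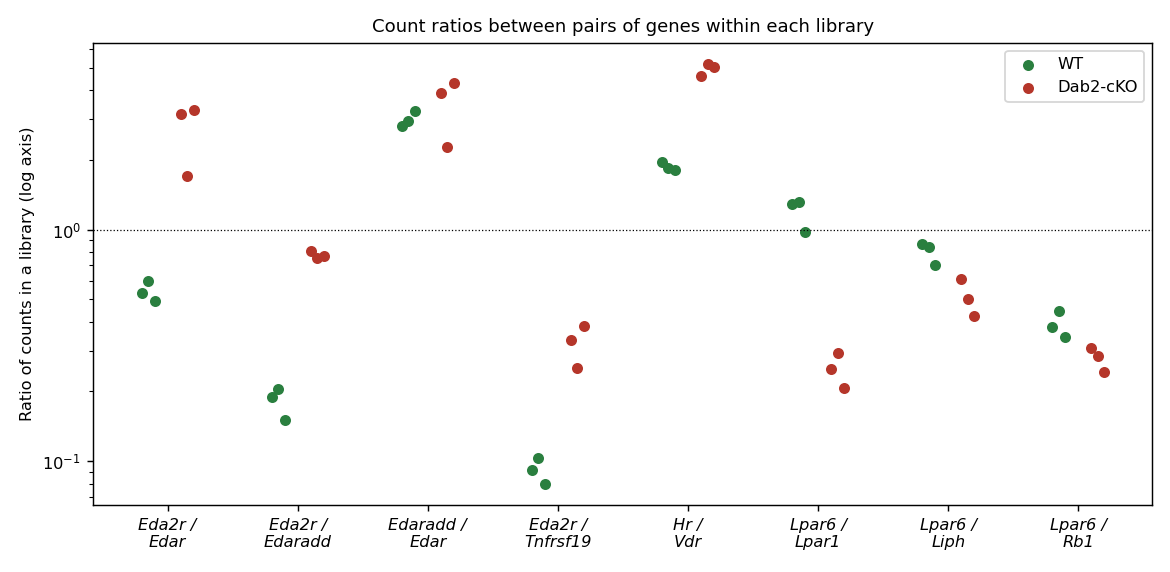
Ratio of the counts of 2 genes within each library (log axis), for 8 pairs, with 3 libraries labelled WT (green) and 3 labelled Dab2-cKO (red). Eda2r over Edar lies between 0.492 and 0.602 in the WT libraries and between 1.71 and 3.29 in the Dab2-cKO libraries, while Edaradd over Edar overlaps.

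Beside the 10 genes, 19 others of the pathway were read from the same fit, namely Furin, a protease that cleaves the ligand, and the signal transducers downstream of the receptors. Of these, 9 were called higher and 3 lower (16.8% and 11.5% of all genes tested), with a median log2 fold change of 0.19. Among genes averaging at least 50 counts, fitted alone, 63.2% of these 19 and 57.6% of all were called, so the share was near that of genes as abundant. Nfkbia, which encodes the NF-κB inhibitor IκBα and is itself an NF-κB target, rose from 247.8 ± 33.7 to 807 ± 45.2 normalized counts (mean ± SD, n = 3 each), a log2 fold change of 1.70 (SE 0.09, adjusted p = 6.75e-26 in edgeR). Map3k14, which encodes the kinase NIK of the noncanonical NF-κB pathway, rose from 96.8 ± 7.05 to 174.6 ± 10.2 (mean ± SD, n = 3 each), with a log2 fold change of 0.85 (edgeR's adjusted p = 2.48e-06). Besides these 2 genes, Relb, Nfkb2, Ikbkg, Traf5, Nfkb1, Rela and Tab2 made up the 9. Tab2, at 0.19, was near the threshold (edgeR's adjusted p = 0.0479), and the libraries of Rela overlapped between groups. DESeq2 called 8 genes of the list higher, and leaving out each library in turn 7 to 10. Of the exon bases of Nfkb2, 38.1% overlap genes on the opposite strand. The immune, endothelial and fibroblast or dermal papilla lists were 4.16, 3.44 and 3.20 times as high in Dab2-cKO, and their part in these rises was not tested. Tab1, a partner of the kinase TAK1, fell by 0.47 on the log2 scale (edgeR's adjusted p = 0.00682), and Traf1 fell by 0.46 (edgeR's adjusted p = 0.0239). Traf3 was the other gene called lower (-0.44). Without WT replicate 2, 1 gene of the list was called lower, with Tab1 at -0.37 (adjusted p = 0.0831) and Traf1 at -0.44 (adjusted p = 0.0811). Traf1 was also not called without WT replicate 1 (-0.43), Dab2-cKO replicate 1 (-0.38) or Dab2-cKO replicate 2 (-0.41). Traf6, which joins Edaradd to the kinases, had 337.8 ± 51.2 and 340.7 ± 11.9 normalized counts (mean ± SD, n = 3 each, log2 fold change 0.006, edgeR's adjusted p = 0.979). With library size only, which lowers all genes (median -0.45), 10 of these genes were called lower and 2 higher. Relative to all genes their median was 0.21, beside 0.22 with TMM, and these are alike by construction because scaling moves all genes by a like amount.

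Of 14 genes reported as targets of ectodysplasin or NF-κB, mostly from embryonic skin, 13 were tested, and 2 were called lower and 3 higher, which is 38.5% beside 28.2% of all genes tested. Among genes averaging at least 50 counts, fitted alone, 85.7% of only 7 listed genes and 57.6% of all were called. Shh, a ligand of the hair matrix, fell from 141.0 ± 3.39 to 15.9 ± 7.11 normalized counts (mean ± SD, n = 3 each), a log2 fold change of -3.11 (edgeR's adjusted p = 1.89e-18). The other was Wnt10b, with a log2 fold change of -1.94. Tnfaip3, a deubiquitinase that limits NF-κB signaling, rose from 160.6 ± 11.4 to 328 ± 11.04 (mean ± SD, n = 3 each), with a log2 fold change of 1.03 (edgeR's adjusted p = 7.95e-12). Ccn2 (1.02) and Icam1 (0.87) were the other risers, and Ccn2 shares 36.5% of its exon bases with a lncRNA on the opposite strand. Foxi3, Dkk4 and Fgf20, targets known from placodes, had means of at most 17.0 normalized counts in either group. Shh also belongs to the matrix list given above, whose sum was 71.6 times as high in WT. The part of those cells in the fall of Shh was not tested, nor was that of the immune and endothelial lists in the rises of Tnfaip3 and Icam1. With library size only, 5 targets were called lower and 3 higher. Relative to all genes their median was -0.03, as with TMM, which an equal shift of all genes requires.

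Lpar6 (ENSMUSG00000033446, chromosome 14, 73475335 to 73480734), the receptor for lysophosphatidic acid that is mutated in woolly hair, fell by about as much as Edar. Its normalized counts were 218.2, 247.4 and 192.2 in WT and 123.0, 127.7 and 106.0 in Dab2-cKO. The groups were well apart. The mean fell from 219.3 ± 27.6 to 118.9 ± 11.5 (mean ± SD, n = 3 each), a log2 fold change of -0.88 (SE 0.14, adjusted p = 1.89e-07 in edgeR), and the value stayed between -1.31 and -0.77 in the 13 alternatives that tested against no change. Lpar6 lies inside Rb1 on the opposite strand, and 7.56% of its exon bases overlap exons of Rb1. Rb1 had a log2 fold change of -0.40 (edgeR's adjusted p = 0.000156). Within libraries, Lpar6 over Rb1 was 0.390 ± 0.0512 in WT and 0.279 ± 0.0339 in Dab2-cKO (mean ± SD, n = 3 each), without overlap (exact 2-sided permutation test, p = 0.1, the lowest possible).

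Liph (ENSMUSG00000044626, chromosome 16, 21771044 to 21814413), the phospholipase that makes the ligand of Lpar6, had 252.7, 293.4 and 274.3 normalized counts in WT and 202.2, 254.3 and 250.5 in Dab2-cKO. Dab2-cKO replicate 2 reached above WT replicate 1, so the groups overlapped. At -0.22 on the log2 scale (SE 0.11), the difference missed the threshold (adjusted p = 0.159 in edgeR). It passed with upper-quartile scaling (-0.36), library size only (-0.65) and a mean count of at least 50 (-0.31), and it was -0.13 without Dab2-cKO replicate 1 (adjusted p = 0.516 in edgeR). The ratio of Lpar6 to Liph, 0.803 ± 0.0885 in WT and 0.511 ± 0.0931 in Dab2-cKO (mean ± SD, n = 3 each), did not overlap between groups (exact 2-sided permutation test, p = 0.1, the smallest possible).

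Of 16 other genes of the lysophosphatidic acid pathway, 3 were called lower and 6 higher (11.5% and 16.8% of all genes tested), with a median log2 fold change of 0.08. Among genes averaging at least 50 counts, 64.3% of the 14 listed genes and 57.6% of all were called. Lpar1, another receptor for the lipid, rose from 184.8 ± 14.3 to 481 ± 40.1 normalized counts (mean ± SD, n = 3 each), a log2 fold change of 1.38 (edgeR's adjusted p = 2.07e-18). Lpar6 over Lpar1 accordingly went from 1.19 ± 0.191 to 0.2495 ± 0.0432 within libraries (mean ± SD, n = 3 each). Plpp3, a phosphatase that breaks down the lipid, rose by 1.26 on the log2 scale (edgeR's adjusted p = 1.22e-24), and 13.3% of its exon bases overlap a lncRNA on the opposite strand. Lpar1 and Plpp3 are also expressed by fibroblasts, whose summed list was higher in Dab2-cKO as given above. The part of that list in these rises was not tested. Signaling from Lpar6 is known to reach the EGF receptor through the protease ADAM17 and the ligand TGFα. Adam17 rose by 0.40 (edgeR's adjusted p = 9.1e-05), while Tgfa fell by 1.64 (edgeR's adjusted p = 6.28e-19) and Egfr by 0.88 (edgeR's adjusted p = 3.37e-17) on the log2 scale. With library size only, where the median of all genes was -0.45, 8 genes of the list were called lower and 3 higher, and Adam17 was at -0.03. Relative to that median Adam17 was at 0.42, beside 0.43 with TMM, which an equal shift of all genes requires.

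Hr (ENSMUSG00000022096, chromosome 14, 70789652 to 70811002), whose loss leaves mice without hair after the first coat, was abundant in all libraries. Its normalized counts were 2298, 2663 and 2491 in WT and 1881, 1986 and 2030 in Dab2-cKO. Every Dab2-cKO library was below every WT library, and the gap to the lowest WT library was small. The log2 fold change was -0.34 (SE 0.07, adjusted p = 6.44e-05 in edgeR). Its partner Vdr, the vitamin D receptor, fell further, from 1333 ± 142 to 398.7 ± 14.6 (mean ± SD, n = 3 each), with a log2 fold change of -1.74 (SE 0.08, adjusted p = 1.55e-29 in edgeR). Within libraries Hr over Vdr was 1.87 ± 0.0765 in WT and 4.94 ± 0.308 in Dab2-cKO (mean ± SD, n = 3 each), without overlap.

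Apcdd1 (ENSMUSG00000071847, chromosome 18, 63055302 to 63094250) had 1110, 1353 and 1090 normalized counts in WT and 1078, 1049 and 1116 in Dab2-cKO. The groups overlapped, and WT replicate 2 was the highest library. The log2 fold change was -0.13 (SE 0.08, adjusted p = 0.212 in edgeR), and without WT replicate 2 it was -0.02 (adjusted p = 0.92). Upper-quartile scaling (-0.27), library size only (-0.56) and a mean count of at least 50 (-0.22) brought it past the threshold.

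Cdsn (ENSMUSG00000039518, chromosome 17, 35863025 to 35868077) had 1176, 1484 and 1428 normalized counts in WT and 1508, 1551 and 1547 in Dab2-cKO. All Dab2-cKO libraries were higher, but the highest WT library came close. The log2 fold change was 0.17 (SE 0.07, adjusted p = 0.0766 in edgeR), it passed without WT replicate 2 (0.24, adjusted p = 0.00656), and it turned to -0.26 with library size only, where the median of all genes was -0.45. Without WT replicate 1 it was 0.08 (adjusted p = 0.432 in edgeR), and with upper-quartile scaling 0.03 (adjusted p = 0.782 in edgeR). Cdsn is a gene of differentiated epidermis. The summed count of 14 genes of differentiated interfollicular epidermis, Cdsn not among them, was 3.09 times as high in Dab2-cKO as in WT. Of these genes, 11 were higher and 3 lower, and their part in the Cdsn counts was not tested.

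**Figure D4:**
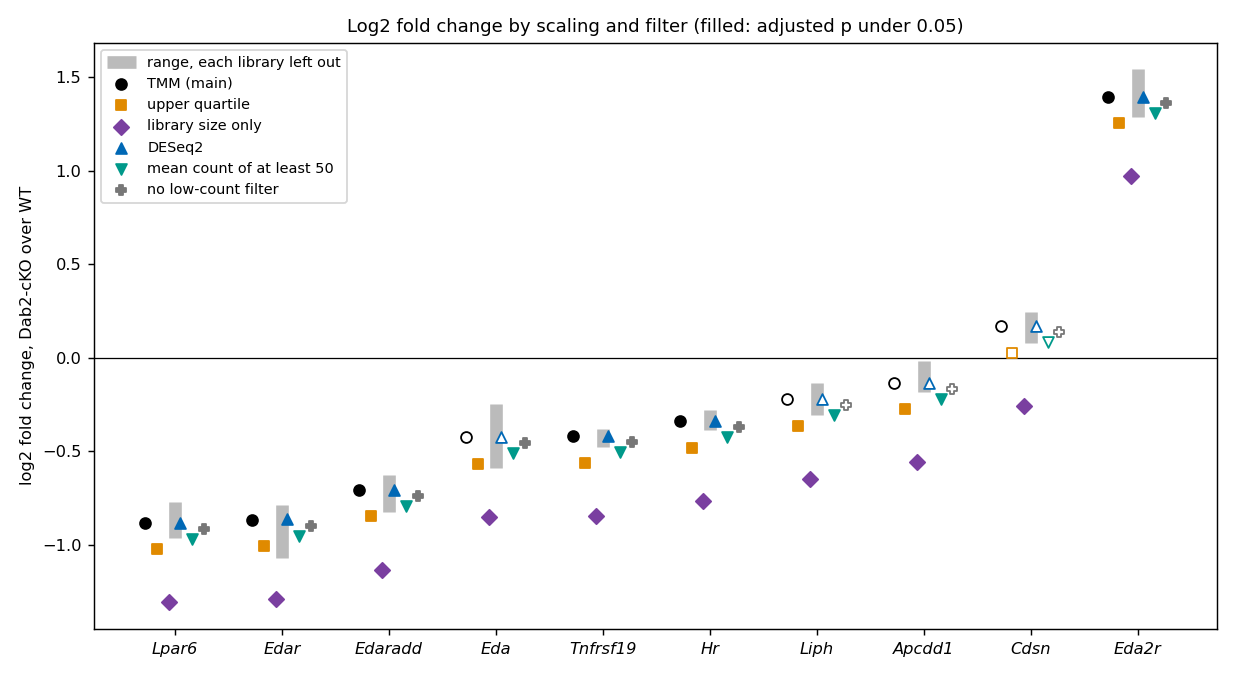
Log2 fold change (libraries labelled Dab2-cKO against WT) for the 10 genes under 6 scalings or filters (filled symbols: adjusted p under 0.05), with grey bars for the range when each library is left out in turn. Library size only lowers every gene by a like amount and takes Cdsn from 0.17 to -0.26, and Eda2r is above 0.97 in all of them.

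Other genes of inherited hair disorders, several of them hair keratins, were read from the same fit. Of 35 such genes, 27 were called lower and 3 higher (11.5% and 16.8% of all genes tested), with a median log2 fold change of -1.74. In one of the marker lists were 6 of the 35, but Krt83 and Krt81, outside those lists, are hair keratins like Krt85 in the matrix list. The sum of the matrix, inner root sheath and hair shaft list was 71.6 times as high in WT, and the part of those cells in these falls was not tested. The largest falls were in the hair keratins Krt83 (log2 fold change -7.67, edgeR's adjusted p = 8.53e-61) and Krt81 (-7.27, edgeR's adjusted p = 8.3e-59). Krt83 went from 8775 ± 860 to 42.8 ± 3.62 normalized counts (mean ± SD, n = 3 each). Spink5, a protease inhibitor of the epidermis, rose from 2880 ± 90.9 to 7129 ± 162 (mean ± SD, n = 3 each), a log2 fold change of 1.31 (edgeR's adjusted p = 8.11e-27). Kank2 rose by 1.22 (edgeR's adjusted p = 4.02e-17). Whether this list differed from the 10 genes was not tested, and reads shared between similar hair keratins may have been split by the counting.

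**Figure D5:**
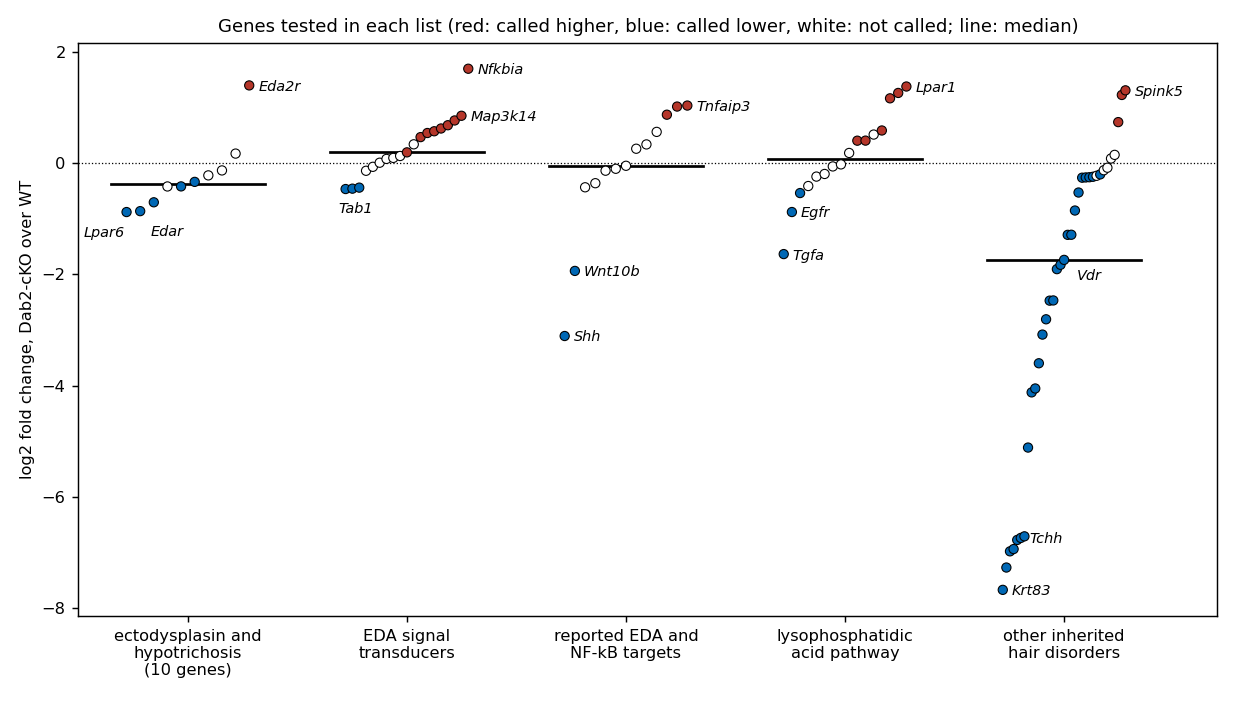
Log2 fold change (libraries labelled Dab2-cKO against WT) for each gene tested in the 10 genes and in 4 related lists, with red for called higher, blue for called lower, white for not called and a line at the median. The 10 genes lie between -0.88 and 1.40, and the hair disorder genes reach -7.67.

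The spread between libraries was compared with that of counting alone. For Hr in WT the coefficient of variation was 7.35% against 1.95% from counting, and for Cdsn in Dab2-cKO it was 1.57% against 2.63%. Eda was the most variable of the 10, with 16.7% in WT and 26.5% in Dab2-cKO, against 8.70% and 10.7% from counting. Edar varied by 5.44% in WT and 21.2% in Dab2-cKO. Over the 6 libraries, and among 10530 protein-coding genes with a mean of at least 100 normalized counts, the log2 level of Gclm (Pearson r = 0.998), Aox2 (0.997) and Prmt1 (0.996) was most like that of Edar. For Hr these were Ranbp2 (0.998), Cbx6 (0.996) and Eef1g (0.996). These correlations span 2 groups of 3 libraries and so include the difference between the groups.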

How the data were processed

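Total RNA of sorted HFSCs at PD68 was sequenced by the authors using a stranded total RNA kit made for small amounts (SMARTer pico). The authors trimmed reads with fastp 0.23.4, aligned them to GRCm39 with HISAT2 2.2.1 and counted them per gene with featureCounts 2.0.6, and deposited these counts without normalization. The annotation release, the strand setting and the handling of reads with several positions are not given in the sources used here. A second deposited table holds the authors' own DESeq2 comparison and was not used.

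Count columns named WT and FL-FL were assigned to the groups by the labels and by the series title, which names the Dab2-cKO group for its floxed alleles (WT mice carry them too), and every direction depends on this. Genes were filtered by edgeR 4.0.16 (R 4.3.3) with its default expression filter, normalized by TMM and tested between groups with its quasi-likelihood F-test, dispersions being robust, and Benjamini-Hochberg adjustment over 32149 genes. Genes at an adjusted p under 0.05 were called. Standard errors were taken from the log2 fold change and its F statistic. Normalized counts are counts over the effective library size times the mean of these sizes. Depth was 7040032 to 11696457 counts per library, and a count of 0 would allow a share of up to 4.26e-05% of the shallowest library (3 counts, counting error only). Positions, exon lengths and overlaps came from GENCODE on GRCm39, which held 56323 of the 56941 gene IDs. List genes were matched by symbol, then by the annotated name of the same ID.

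Named genes were the 10 genes, up to 2 extremes in each direction among called genes of each list with a mean of at least 50 normalized counts and no overlap, Traf6, Nfkbia, Vdr, Adam17, Dab2 and Rb1, and the 3 genes most like Edar and Hr. Relb, Nfkb2, Ikbkg, Traf5, Nfkb1, Rela, Tab2, Traf3, Furin, Icam1, Foxi3, Dkk4 and Fgf20, the promoter motifs and the ratios were added after values were seen. The 10 genes and the lists were chosen with earlier results of these data known. Scripts were tested on simulated data. Alternatives were DESeq2 1.42.0, other scalings and filters, a replicate block, each library left out and a test against a 1.5-fold change.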

Additional observations from a re-analysis of the deposited data

How the results depend on the processing

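Of the 10 genes, 5 were called lower and 1 higher. Upper-quartile scaling called 8 lower, library size only 9 and a mean count of at least 50 again 8, while the test against a 1.5-fold change called 1 lower (each leaving 1 higher). With each library left out, 5 to 6 were called lower and 1 to 2 higher. Of the signal transducers, library size only called 10 lower and 2 higher, the test against a 1.5-fold change 0 lower and 1 higher, and leaving out each library 1 to 3 lower. Library size only called 5 of the reported targets lower, and 8 genes of the lysophosphatidic acid pathway lower with 3 higher, and the test against a 1.5-fold change called 3 of that pathway higher. Over all genes, 3682 were lower and 5387 higher (40.6% of calls lower). Upper-quartile scaling gave 5561 lower (56.5%), library size only 11168 lower and 2686 higher (80.6%), and the test against a 1.5-fold change 1136 and 2222. Cdsn reversed with library size only (-0.26), as did Adam17 (-0.026). Traf6, not called and near 0, turned to -0.14 under upper-quartile scaling, to -0.42 when scaled by library size only, to -0.026 without a low-count filter and to -0.079 for genes averaging at least 50 counts, and ranged from -0.10 to 0.10 when each library was left out. Library size only and upper-quartile scaling shift all genes by a like amount by construction (all-gene medians -0.45 and -0.17, beside -0.02 with TMM). In the fit of genes averaging at least 50 counts, with its own scaling, all 10 log2 fold changes were also lower than in the main fit. The cause of the other moves was not tested. Same-numbered libraries did not deviate together (correlations 0.07, -0.01 and 0.06), and not every library correlated best with its own number, so the numbers were not taken as pairs. With a replicate block 5 of the 10 genes were lower and 1 higher, and 3620 and 5347 of all genes. The depth limits Eda, Edar and Eda2r most, with 48 to 173 counts per library.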
